A study of Mus musculus with 8 samples.

Results

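Tissue outside muscle was examined in 10x Visium sections of fetal mouse diaphragm at E18.5, in 1 section of a β-catenin conditional knockout (β-cat cKO) and 2 control sections. A Visium spot is a 55 µm disc of tissue that can hold several cells, and its UMIs are counts of distinct RNA-bound probes. Levels are given as CPM, counts of a gene scaled to the same total of UMIs in each summed set of spots. Spots were kept at 1000 or more UMIs. Spots outside muscle were then chosen by their measured muscle RNA, as the mean log1p count per 10000 UMIs over 9 genes: the myosin light chains *Myl1* and *Mylpf*, the actin *Acta1*, the thin-filament genes *Neb* and *Tnnt3*, the giant protein gene *Ttn*, *Actn2* and *Des* of the Z-disc, and the calcium release channel *Ryr1*. A spot was placed outside muscle when this score lay at or below the section's own Otsu cut, a threshold that splits a distribution into 2 groups. Spots with more than 0.5% of their UMIs from *Alb* and *Ahsg*, made by liver, were dropped. This left 1244 spots of the 8142 kept in the 3 sections and of the 12703 kept in all 8 sections of the series. They were 340 of 3460 spots in control 1 (9.83%, exact 95% interval 8.85 to 10.9), 326 of 2525 in control 2 (12.9%, 11.6 to 14.3) and 578 of 2157 in the cKO (26.8%, 24.9 to 28.7). Intervals on shares of spots cover counting error only, and the place where each diaphragm was cut also sets these shares.

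The cKO embryo was bCat cKO by its label. In the study's methods this is HSA-Cre with both β-catenin alleles floxed, so that Cre is driven by the human skeletal actin promoter, which is active in muscle fibres. Controls carried at least 1 allele expressing CaV1.1 and 1 expressing β-catenin, and the matings also held a CaV1.1 null allele, so a single CaV1.1 null allele in any of the 3 embryos is possible. The sex, litter and exact alleles of each embryo were not given in the sources used here, and UMIs of Y-linked genes were present in all 3 sections (193, 162 and 177 CPM outside muscle in control 1, control 2 and the cKO). The other 5 sections, 3 controls and 1 CaV1.1 -/- at E14.5 and 1 CaV1.1 -/- at E18.5, entered the same fit. The spread between sections comes from the control groups only, because a group of 1 section adds nothing to it. The cKO has no replicate, and each fold change below assumes that it varies as the control groups do.

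The diaphragm is a sheet of muscle around a central tendon. Tendon cells lay down collagens and small leucine-rich proteoglycans that order the collagen fibrils, and the transcription factors *Scx* and *Mkx* and the membrane protein *Tnmd* are their classical markers. Fibrocartilage and rib cartilage add *Acan*, *Col2a1* and the type IX and XI collagens, a mesothelium covers both faces of the sheet, and vessels, nerve and immune cells run through it. β-catenin links cadherins to the cytoskeleton and carries canonical Wnt signalling, in which it drives targets such as *Axin2*.

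The spots outside muscle held 6304698 UMIs in control 1, 6902476 in control 2 and 12734920 in the cKO, with a median per spot of 17353, 20185 and 19537.5. The cut on the muscle score was 3.79, 3.58 and 3.20. The spots on either side of it scored 3.794 and 3.803 in control 1, 3.583 and 3.585 in control 2, and 3.191 and 3.196 in the cKO. Of the spots outside muscle, 57.6%, 48.5% and 48.4% touched a muscle spot. The highest *Alb* and *Ahsg* share kept was 0.343%, 0.0148% and 0.260%, and the 28 spots dropped in control 1 and the 2 dropped in the cKO started at 0.517% and 0.560%. Muscle RNA was not absent from these spots. Over 22 muscle genes that the rule did not use, their summed share of UMIs was 37.7%, 24.3% and 14.7% of that in the section's muscle spots, so that the cKO held the least.

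The cKO spots held a tissue that neither control had. *Krt4*, *Krt5*, *Krt13* and *Krt15*, keratins of the lining of stratified epithelia, made up 144676 UMIs outside muscle in the cKO and 3 UMIs in each control. Spots with more than 0.5% of their UMIs from these 4 keratins are called keratin-rich here. This cut was chosen after the values were seen, and the spots on either side of it held 0.502% and 0.481%. There were 128 such spots among the 578 of the cKO (22.1%, exact 95% interval 18.8 to 25.8). Control 1 held 0 of 340 and control 2 held 0 of 326, with upper ends of the exact 95% interval at 1.08% and 1.13%. Each of the 5 other sections also held 0. Of the 128, 125 formed 1 connected strip, 35 touched muscle and 6 also passed the score for tendon used below. They were deeper than the rest, with a median of 37300 UMIs against 17272 in the other cKO spots outside muscle, and gave 37.7% of all UMIs of the cKO outside muscle. What organ the strip belongs to was not tested.

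**Figure D1:**
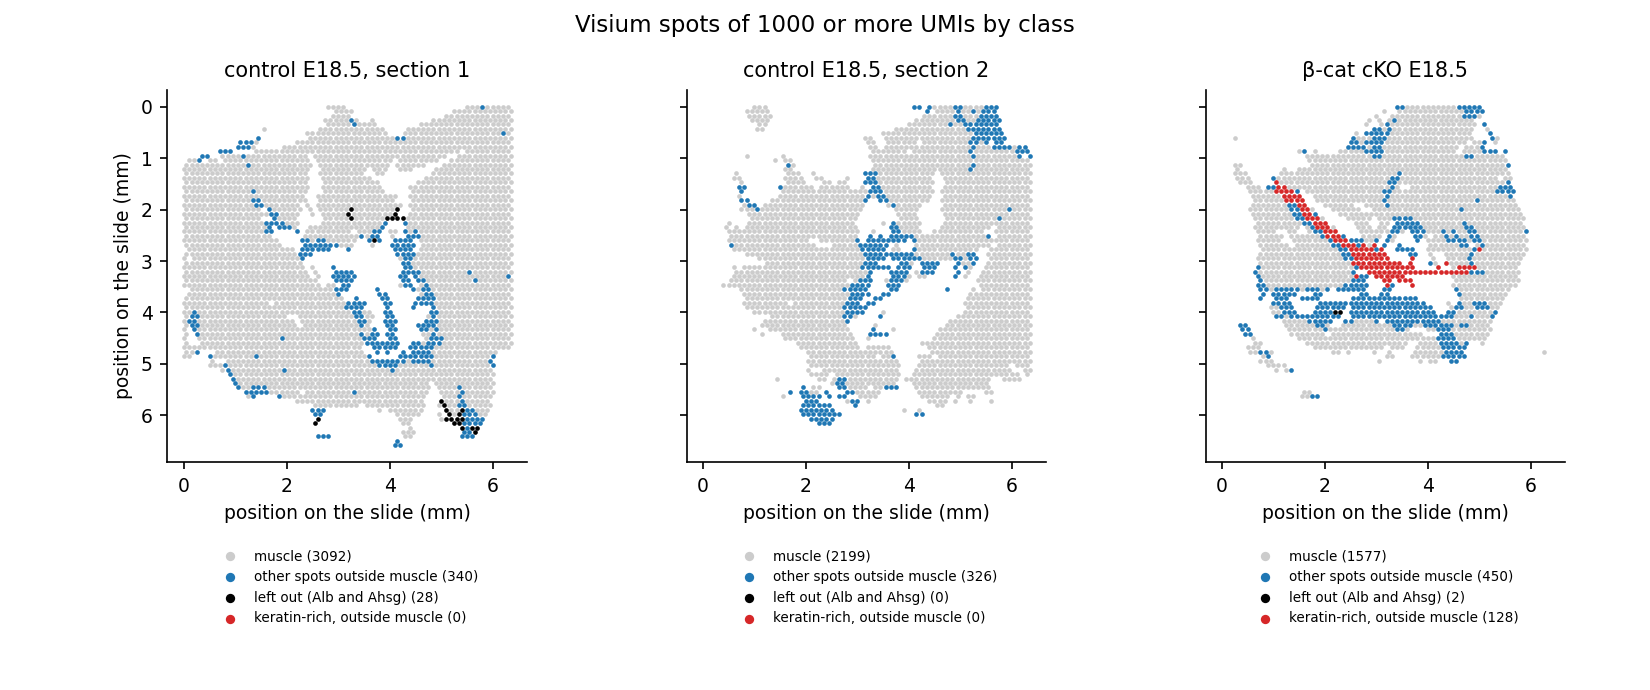
Spots of 1000 or more UMIs in control 1, control 2 and the β-cat cKO at E18.5, placed by their position on the slide in mm and coloured by class. The cKO section holds 578 spots outside muscle, of which 128 are keratin-rich and lie almost entirely in 1 strip, while the controls hold 340 and 326 spots outside muscle and no keratin-rich spot.

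Keratin UMIs did not stop at the edge of the strip. The 4 keratins took 2.88% of UMIs within it, 0.284% in the 46 spots up to 150 µm away, 0.174% in the 38 spots up to 300 µm, 0.0757% in the 47 spots up to 500 µm, 0.0393% in the 144 spots up to 1000 µm and 0.0202% in the 175 spots beyond. The share fell at each step but was still far above the 4.76e-05% and 4.35e-05% of the controls at the largest distance. Each comparison was therefore made over all spots outside muscle and again over spots more than 500 µm from any keratin-rich spot, which kept 319 cKO spots with 5381044 UMIs and every control spot. In those 319 spots muscle RNA was 18.6% of the level of muscle spots.

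**Figure D2:**
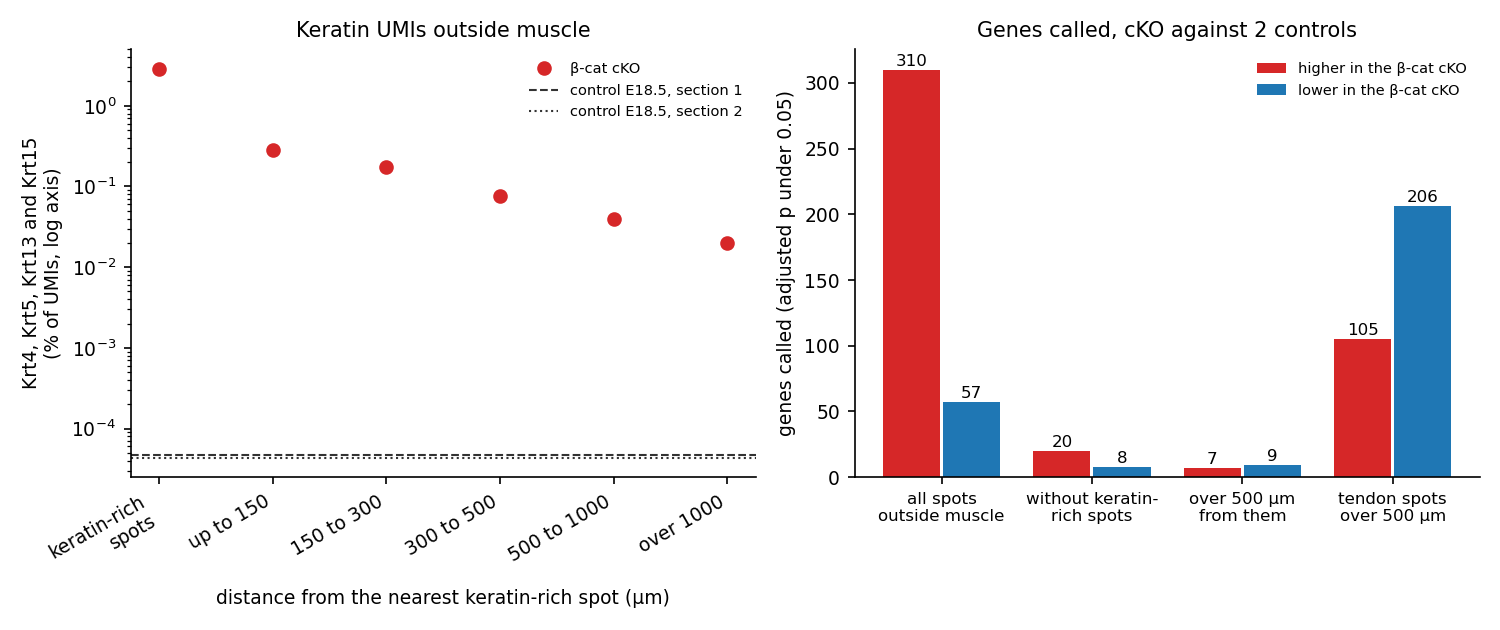
Left, share of UMIs from *Krt4*, *Krt5*, *Krt13* and *Krt15* outside muscle (percent, log axis) against distance in µm from the nearest keratin-rich spot of the β-cat cKO, with the 2 controls as horizontal lines. Right, genes called higher or lower in the cKO over all spots outside muscle (310 and 57), without keratin-rich spots (20 and 8), over 500 µm from them (7 and 9), and in tendon spots over 500 µm from them (105 and 206).

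*Ctnnb1*, the targeted gene, was not lower outside muscle in the cKO. It stood at 128 CPM in control 1, 152 in control 2 and 154 in the cKO, and at 136, 140 and 142 in the E14.5 controls, 186 in the CaV1.1 -/- at E14.5 and 107 in the CaV1.1 -/- at E18.5. The log2 fold change of the cKO was -0.01 ± 0.16 (SE, adjusted p = 0.988). In muscle spots, where Cre is active, *Ctnnb1* was at 75.9 and 71.2 in the controls and 81.5 in the cKO. The position of its probes against the deleted exons is not known, so its level may check nothing.

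Over all spots outside muscle, 310 genes were higher and 57 lower in the cKO, of 14541 tested (2.13% and 0.392%, together 2.52%, edgeR's quasi-likelihood test, adjusted p under 0.05). Genes that chose the spots were left out of these counts. The rises were mostly genes of the keratin-rich strip. Of the 310, 304 (98.1%) stood at least 2 times as high in keratin-rich spots as in cKO spots over 500 µm away. Of all genes tested, 11.3% did. At most 5 UMIs in each control were counted for 133 of the 310, and for 822 of all 14541 genes tested. The median log2 fold change of the 310 was 4.76 over all spots. It was 0.77 over spots away from the strip, where 237 of them could be tested and 7 were called. The falls behaved otherwise. Their median was -1.89 over all spots and -1.72 away from the strip, and all 57 stayed below 0 there.

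Without the keratin-rich spots, 20 genes were higher and 8 lower of 14260 tested (0.196% together). In spots over 500 µm away, 7 were higher and 9 lower of 14153 (0.113%), with 1147 genes at an unadjusted p under 0.05. DESeq2 called 40 higher and 75 lower in the same spots (0.813%). The 7 rises were *Krt4*, *Krt15*, *Psca*, *Cyp2f2*, *Mymx*, *Kremen2* and *1520401A03Rik*, of which the first 4 are genes of the strip. Among these, *Krt4* and *Krt15* belong to the 4 keratins that defined the strip. The 9 falls were *Myl2*, *Myl3*, *Myh7*, *Myh4*, *Lrtm1*, *Ddit4l*, *Acan*, *Col11a2* and *Kera*, the last 3 of which are made outside muscle. Leaving out control 1 left 1 rise and 0 falls in these spots, and leaving out control 2 left 3 rises and 0 falls.

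**Figure D3:**
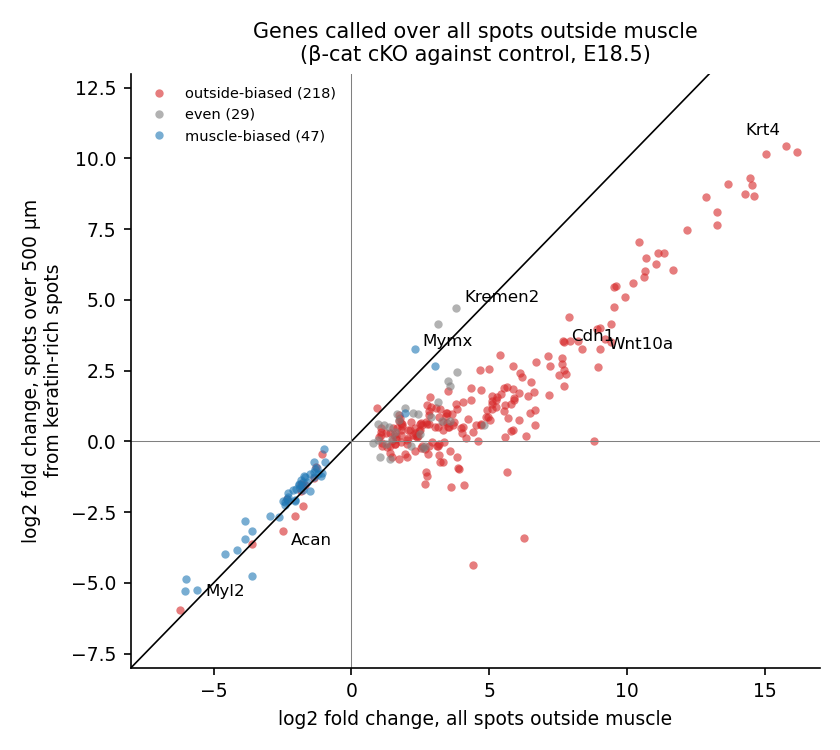
Each point is a gene called over all spots outside muscle and tested away from the strip, with its log2 fold change (β-cat cKO against control, E18.5) over all spots on the x axis and over spots more than 500 µm from keratin-rich spots on the y axis, coloured by whether its level was higher outside muscle, even or higher in muscle, with the line of equal values in black. Rises such as *Krt4*, *Wnt10a* and *Cdh1* lie below the line, *Mymx* and *Kremen2* lie above it, and falls such as *Acan* and *Myl2* lie near it.

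The largest rises among genes with higher levels outside muscle than in it were of epithelial genes, and in most of them the controls had next to no UMIs. This class was set by a ratio averaged over the 2 controls and the cKO. Genes nearly absent from the controls therefore enter it only through the cKO. *Krt4* and *Krt13*, partner keratins of epithelia that do not cornify, such as the lining of the oesophagus, had 1 and 0 UMIs in control 1, 0 and 0 in control 2, and 71422 and 14228 in the cKO. *Krt15* and *Krt5*, keratins of basal cells, had 2 and 0 UMIs in control 1, 3 and 0 in control 2, and 54614 and 4412 in the cKO. *Krt6a* went from 0 and 0 UMIs to 6672, and *Sprr3*, a cross-linked envelope protein of such epithelia, from 0 and 0 to 4926. No fold is given for a gene with at most 3 UMIs in each control.

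Other epithelial rises followed the same pattern. *Psca*, a surface antigen of epithelia, had 0 and 1 UMIs in the controls and 30089 in the cKO. *Cyp2f2*, a cytochrome P450 of airway epithelium, had 2, 0 and 17636. *S100a14*, a calcium-binding protein of epithelia, had 3, 3 and 4919. The unnamed gene *2300002M23Rik* had 0, 0 and 3894. *Upk3bl*, an uroplakin-like gene, had 8 UMIs in control 1, 6 in control 2 and 10502 in the cKO (log2 fold change 9.44 ± 0.30, adjusted p = 2e-05). *Upk3bl* stood at 2099 CPM within the strip and 20.8 in cKO spots over 500 µm away.

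Among genes at even levels outside and in muscle, the 4 largest rises were also highest in the strip. *Rassf7* stood at 14.8 and 12.03 CPM in the controls and 110 in the cKO (log2 fold change 2.88 ± 0.25, adjusted p = 0.00185), with 246 in the strip and 26.6 away from it. *Erbb3*, a neuregulin receptor of Schwann cells and epithelia, was at 24.7, 25.1 and 87.8 (1.67 ± 0.31, adjusted p = 0.0404). *Nedd4l*, a ubiquitin ligase, was at 30.9, 27.8 and 97.4 (1.58 ± 0.17, adjusted p = 0.00434). *Epb41l4b* was at 34.9, 33.6 and 101 over all spots (1.41 ± 0.18, adjusted p = 0.00935), and turned to -0.61 ± 0.21 away from the strip (adjusted p = 0.506).

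*Acan* and *Col11a2*, genes of cartilage and fibrocartilage, fell in the cKO over all spots and away from the strip. *Acan*, the core protein of aggrecan, stood at 118 CPM in control 1, 143 in control 2 and 25.8 in the cKO, and at 15.8 in cKO spots over 500 µm from the strip. Both controls were at least 4 times as high as the cKO. The log2 fold change was -2.48 ± 0.22 over all spots (adjusted p = 0.00212) and -3.16 ± 0.24 away from the strip (adjusted p = 0.0149). *Col11a2*, a chain of type XI collagen, was at 232, 250 and 64.8, and at 41.8 away from the strip (-2.04 ± 0.26, adjusted p = 0.00974, and -2.65 ± 0.27, adjusted p = 0.0358). Both genes also fell in the muscle spots, *Acan* (-1.77 ± 0.33, adjusted p = 0.0211) and *Col11a2* (-1.61 ± 0.38, adjusted p = 0.0434). The difference between the change outside muscle and that in muscle did not pass (adjusted p = 0.354 and 0.626). Of 14 cartilage genes tested, 0 were called higher and 2 lower over all spots, where 0.392% of all genes were lower, and 13 were below 0 (median log2 fold change -2.26, against -0.01 over all genes tested). Away from the strip the same 2 counts came out, with a median of -2.33.

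Several cartilage genes were lower in the cKO than in both controls without passing the test. *Col2a1*, the main collagen of hyaline cartilage, was at 898, 1008 and 76.2 CPM (-3.79 ± 0.80, adjusted p = 0.0627). *Col9a1* was at 145, 115 and 3.69 (-5.28 ± 1.13, adjusted p = 0.0657). *Matn3*, a cartilage matrix protein, was at 15.9, 16.9 and 0.628 (adjusted p = 0.0603). *Sox9*, the transcription factor of chondrocytes, was at 43.1, 60.4 and 40.4, and was higher in the strip (76.2) than away from it (18.03). The cartilage genes took 0.174% and 0.187% of UMIs outside muscle in the controls and 0.0340% in the cKO. Among the 3 sections, only the controls held spots with over 0.5% cartilage UMIs. Leaving those spots out took control 1 from 340 to 321 spots and control 2 from 326 to 309, and left the 578 cKO spots as they were. Then 2 of 13 cartilage genes were called lower and the median was -1.37, where 0.413% of all genes were called lower. The 5 genes that chose those spots, *Col2a1*, *Col9a1*, *Col9a2*, *Col9a3* and *Acan*, were not left out of this test. Since only control spots were dropped, the choice itself lowers the control levels of these genes. In bulk sums such as these, fewer cells of a type and less RNA per cell cannot be told apart.

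Tendon genes were lower in the cKO as a list, with 2 passing the test over all spots, where 0.392% of all genes were called lower. Of 23 tendon genes tested, 22 had a log2 fold change below 0 (median -1.32) and 0 were called higher. *Kera*, the small leucine-rich proteoglycan keratocan, was at 114 CPM in control 1, 139 in control 2 and 41.5 in the cKO, and at 28.2 away from the strip (-1.75 ± 0.20, adjusted p = 0.0064, and -2.28 ± 0.22, adjusted p = 0.0272). *Comp*, a matrix protein that binds collagens in tendon and cartilage, was at 44.9, 69.4 and 5.10 (-3.62 ± 0.49, adjusted p = 0.0122), and at 5.02 away from the strip, where it did not pass (-3.62 ± 0.50, adjusted p = 0.106). In both genes the value of the 1 cKO section lay below both controls, which gives no range for the cKO.

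The classical tendon markers had lower levels in the cKO than in either control, but none of the 4 passed over all spots. *Scx* was at 122, 176 and 55.4 CPM (-1.57 ± 0.43, adjusted p = 0.137). *Tnmd* was at 962, 746 and 340 (-1.48 ± 0.54, adjusted p = 0.251). *Mkx* was at 63.8, 87.7 and 37.8 (-1.15 ± 0.32, adjusted p = 0.147), and *Fmod*, fibromodulin, at 1211, 1502 and 491 (-1.61 ± 0.49, adjusted p = 0.175). Away from the strip the tendon list had 1 call, *Kera*, 21 of 23 genes below 0 and a median of -0.90. Over the 13 small leucine-rich proteoglycans tested, *Kera* was the only call, where 0.392% of all genes were lower over all spots. The median was -1.17 over all spots and -0.62 away from the strip. *Lum*, lumican, was at 458, 476 and 541 (0.07 on the log2 scale, adjusted p = 0.92).

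**Figure D4:**
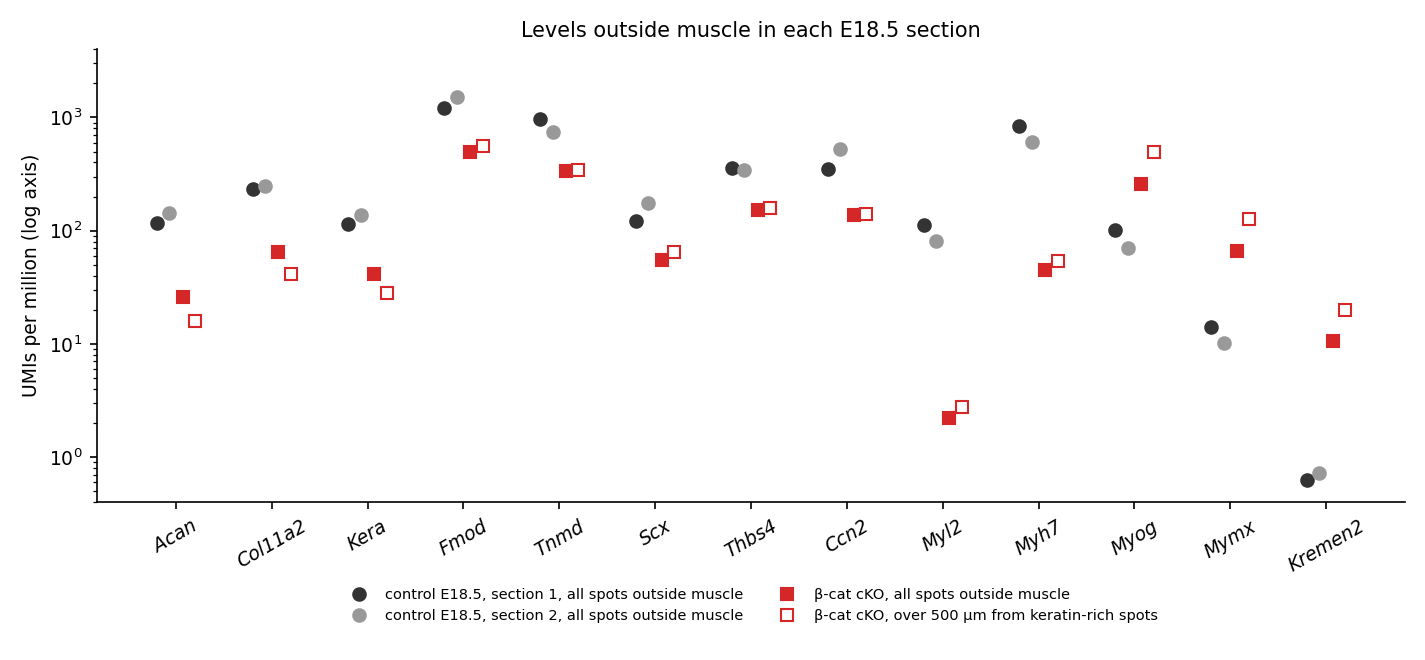
Level outside muscle, in CPM on a log axis, of 13 genes in control 1, control 2 and the β-cat cKO over all spots, and in the cKO over spots more than 500 µm from keratin-rich spots. For *Acan*, *Col11a2*, *Kera*, *Fmod*, *Tnmd*, *Scx*, *Thbs4*, *Ccn2*, *Myl2* and *Myh7* both cKO values lie below both controls, and for *Mymx* and *Kremen2* they lie above both controls.

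Other matrix and surface genes, with higher levels outside muscle than in it on average over the 3 sections, also fell over all spots. *Ccn2*, a matrix protein induced by YAP and TGF-β signalling, was at 351, 526 and 137 CPM (-1.82 ± 0.30, adjusted p = 0.0284). It was the only call among 13 targets of YAP and mechanical load (0 higher, 1 lower, median -0.37), where 0.392% of all genes were lower. *Itgbl1*, an integrin β-like secreted protein, was at 109, 199 and 47.5 (-1.84 ± 0.34, adjusted p = 0.0445). *Scube2*, a secreted protein that helps release hedgehog ligands, was at 96.6, 84.2 and 31.3 (-1.68 ± 0.26, adjusted p = 0.0199). *Cgref1* was at 56.0, 77.2 and 29.0 (-1.34 ± 0.24, adjusted p = 0.0363). *Pcsk6*, a proprotein convertase, was at 142, 164 and 80.0 (-1.08 ± 0.18, adjusted p = 0.027), but at 121 in cKO spots away from the strip (-0.46 ± 0.17, adjusted p = 0.573).

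Tendon spots were compared next. They were those outside muscle whose mean over *Col12a1*, *Col11a1*, *Scx* and *Antxr1* lay above an Otsu cut in their own section, and those over 500 µm from the strip were compared, 145 in control 1, 153 in control 2 and 155 in the cKO. This choice was added after the strip was seen. The cut was 1.32, 1.49 and 1.09, lowest in the cKO, and the median score of all spots above it was 1.83, 2.08 and 1.41, so that the spots were not matched on tendon content and spots with a lower tendon score entered in the cKO. Muscle RNA in these spots was 35.6%, 25.7% and 17.2% of the level of muscle spots. Of 13002 genes, 105 were higher and 206 lower in the cKO (0.808% and 1.58%, together 2.39%). This split depended on the scaling, which was 365 higher and 148 lower without scaling factors, where all log2 fold changes shift up by 0.24. With control 1 left out there were 28 higher and 75 lower, and with control 2 left out 29 and 99.

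In tendon spots away from the strip, 10 of 19 tendon genes were lower and 0 higher (median -1.31), and without scaling factors 9 were lower and 0 higher, where 1.14% of all genes were called lower. Without control 1 the count was 9 lower, with 0.577% of all genes called lower, and without control 2 it was 4 lower, with 0.763%. *Kera* was at 219 and 284 CPM in the controls and 49.3 in the cKO (-2.60 ± 0.26, adjusted p = 0.00056). *Comp* was at 66.3, 99.0 and 5.55 (-4.13 ± 0.40, adjusted p = 0.00056). *Tnmd* was at 1820, 1495 and 579 (-1.76 ± 0.30, adjusted p = 0.0105), and *Fmod* at 2233, 2941 and 849 (-1.85 ± 0.32, adjusted p = 0.0122). *Mkx* passed too (-1.15 ± 0.24, adjusted p = 0.0301). *Ptn* and *Chodl* had values above 0 (0.38 and 0.39) that did not pass. The lower cut in the cKO moves with all of these values, and its part in them was not tested.

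Of 12 cartilage genes in the same spots, 7 were lower and 0 higher (median -3.15), where 1.58% of all genes were lower. The count was 3 of 11 without control 1 and 5 of 12 without control 2. *Acan* was at 214 and 260 CPM in the controls and 26.4 in the cKO (-3.41 ± 0.26, adjusted p = 8e-05). *Col2a1* was at 1405, 1650 and 69.1 (-4.71 ± 0.48, adjusted p = 0.00056). The score that chose these spots includes *Col11a1*, a type XI collagen gene, and so is not independent of cartilage. Spots with over 0.5% cartilage UMIs, which only the controls held, were not left out here. Over all spots outside muscle *Acan* was at 118 and 143 in the controls and 25.8 in the cKO, so only the control levels rose with this choice. Its part in the cartilage values was not tested. Of 12 small leucine-rich proteoglycans 5 were lower, 4 without control 1 and 3 without control 2, among them *Ogn*, osteoglycin (-1.16, adjusted p = 0.0122), and *Chad*, chondroadherin (-4.06, adjusted p = 0.00438). Of 30 fibroblast matrix genes 2 were higher and 0 lower (median -0.01), where 0.808% of all genes were higher. This split depended on the fit, with 6 higher and 0 lower without scaling factors (median 0.23), 2 higher and 6 lower by DESeq2 and 1 higher and 2 lower without control 1.

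Muscle transcripts were also measured over all spots outside muscle, where they come with the muscle RNA described above. *Myl2*, the slow regulatory light chain, stood at 113 CPM in control 1, 81.6 in control 2 and 2.20 in the cKO (-5.61 ± 0.54, adjusted p = 0.00297). *Myl3*, the slow essential light chain, was at 53.8, 41.1 and 0.785 (-6.04 ± 0.61, adjusted p = 0.00358). *Myh7*, the slow myosin heavy chain, was at 836, 602 and 44.5 (-4.17 ± 0.38, adjusted p = 0.00229). *Myh4*, a fast myosin heavy chain of mature fibres, was at 54.6, 49.3 and 7.38 (-2.96 ± 0.29, adjusted p = 0.00326). *Coq8a*, a kinase of coenzyme Q synthesis, was at 133, 104 and 24.8 (-2.41 ± 0.45, adjusted p = 0.0422).

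The same genes fell in the muscle spots of the cKO section. There the log2 fold change was -4.72 ± 0.25 for *Myl2*, -5.96 ± 0.37 for *Myl3*, -3.62 ± 0.26 for *Myh7*, -2.09 ± 0.27 for *Myh4* and -1.80 ± 0.22 for *Coq8a*. Over the 22 muscle genes not used by the rule, 0 were higher and 5 lower outside muscle (median -1.53), where 0.392% of all genes were lower. This fall moves with the lower share of muscle RNA in the cKO spots. Of the 57 falls over all spots, 44 were of genes with higher levels in muscle than outside it, and 13 of genes with higher levels outside. Of all 14541 genes tested, 1129 had higher levels in muscle and 7397 had higher levels outside.

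*Mymx*, the fusion peptide myomixer of fusing myoblasts and 1 of 10 genes on the list of muscle precursors, was called higher. It stood at 14.1 CPM in control 1, 10.3 in control 2 and 66.4 in the cKO over all spots (2.29 ± 0.36, adjusted p = 0.0231). It was at 127 away from the strip (3.26 ± 0.37, adjusted p = 0.0437) and at 146 in tendon spots there, against 13.3 and 14.0 in control tendon spots. In muscle spots *Mymx* was at 32.8 and 31.0 in the controls and 61.8 in the cKO (0.73 ± 0.20, adjusted p = 0.0624). Unlike in the controls, *Mymx* was thus at a higher level in cKO spots away from the strip than in cKO muscle spots.

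*Myog*, the transcription factor myogenin, had values of the same order. It was at 102, 70.3 and 258 CPM over all spots (1.43 ± 0.33, adjusted p = 0.0804) and at 490 away from the strip (2.38 ± 0.33, adjusted p = 0.0971). In tendon spots away from the strip it was at 97.2, 72.5 and 552 and passed (2.46 ± 0.29, adjusted p = 0.00121). *Pax7*, the marker of muscle stem cells, was at 6.66, 6.23 and 11.6 over all spots and passed only in those tendon spots (1.51, adjusted p = 0.0273), of the 3 sets of spots compared here. Of the 10 precursor genes, 1 was higher over all spots, where 2.13% of all genes were higher, and 1 away from the strip, where 10 of 10 were above 0 (median 0.86), and 3 were higher in tendon spots, where 0.808% of all genes were higher. In tendon spots this count was 2 with either control left out. The list took 0.0535% and 0.0579% of UMIs outside muscle in the controls and 0.133% in the cKO away from the strip.

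A pair of genes of other kinds rose together with *Mymx* away from the strip. *Kremen2*, a receptor for Dickkopf proteins that lowers Wnt signalling, had 4 UMIs in control 1, 5 in control 2 and 135 in the cKO (3.79 ± 0.41, adjusted p = 0.00468), of which few lay in the strip (1.87 CPM there and 20.1 away from it). It was also higher in muscle spots (2.23 ± 0.22, adjusted p = 0.00254). The unnamed gene *1520401A03Rik* had 8, 10 and 171 UMIs over all spots (3.14 ± 0.43, adjusted p = 0.0129) and stood at 26.2 CPM away from the strip. *Serinc2*, the other rise of the muscle-biased class that the rule for named genes reached, was at 17.1, 12.9 and 64.7 (1.96 ± 0.22, adjusted p = 0.00539), with 124 in the strip and 33.1 away from it.

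A few genes of the smooth muscle and mesothelium lists were called higher over all spots, where 2.13% of all genes were higher, and 0 away from the strip. Of 13 genes of smooth muscle and pericytes, *Acta2*, *Myh11* and *Cnn1*, the smooth muscle actin, myosin and calponin, were higher and 0 lower, and the median over the list was -0.19 with 7 of 13 below 0. *Myh11* was at 31.2 and 52.0 CPM in the controls, 292 in the cKO, 494 in the strip and 15.98 away from it (2.67 ± 0.36, adjusted p = 0.0125, and -1.49 ± 0.53, adjusted p = 0.525). *Acta2* was at 247, 352 and 988, and at 304 away from the strip. Away from the strip 0 of the 13 were called and all 13 were below 0 (median -0.56). Of 14 mesothelium genes 1 was higher (median 0.12, 8 above and 6 below 0). This was *Krt7*, a keratin of simple epithelia, at 176, 72.6 and 1247 (3.16 ± 0.57, adjusted p = 0.0377), and at 250 away from the strip (adjusted p = 0.735). In tendon spots away from the strip *Krt7* did pass, at 76.1, 56.3 and 213 (1.45 ± 0.24, adjusted p = 0.00925). *Msln*, mesothelin, was at 243, 67.9 and 196, so that the controls differed more from each other than from the cKO.

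Vessel genes had lower values without calls. All 16 endothelial genes were below 0 over all spots (median -0.78), 11 of them at an unadjusted p under 0.05, and 0 passed. *Cdh5*, the cadherin of vessel walls, was at 225 and 242 CPM in the controls, 153 in the cKO and 198 away from the strip (-0.76, adjusted p = 0.193). Away from the strip the median was -0.57 and 15 of 16 were below 0. In muscle spots 5 of 16 were lower (median -0.75), where 5.63% of all genes were lower.

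In the nerve list *Erbb3* was the only call among 14 genes over all spots, where 2.13% of all genes were higher. The list median was -0.53, with 10 of 14 below 0. Away from the strip 0 were called and 13 of 14 were below 0 (median -1.96, 7 at an unadjusted p under 0.05). *Erbb3* was also the only call in tendon spots away from the strip (1.76 ± 0.36, adjusted p = 0.0248), where the list median was 0.26. For axon genes the controls were far apart. *Nefm*, a neurofilament of axons, was at 8.88 CPM in control 1, 53.3 in control 2 and 3.06 in the cKO (-3.47, adjusted p = 0.217). Of 18 macrophage and immune genes, 30 fibroblast genes, 30 cell cycle genes, 23 matrix enzyme genes, 34 genes of TGF-β and BMP signalling, 15 IGF genes, 23 interferon genes, 16 hypoxia and glycolysis genes and 20 stress genes, 0 passed in either direction over all spots. Of 30 cell cycle genes 28 were above 0 (median 0.41), 10 of them at an unadjusted p under 0.05. *Mki67*, the proliferation marker, was at 173, 156 and 248 (adjusted p = 0.292), highest in the strip at 292. Of 12 liver genes, 9 red cell genes, 8 bone genes and 6 lymphatic genes 0 passed. Of 10 adipose genes 1 was lower, where 0.392% of all genes were lower. Liver genes were all below 0 (median -3.09), and their share of UMIs was 0.0188% in control 1, 0.000391% in control 2 and 0.00141% in the cKO.

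Targets of canonical Wnt signalling did not pass over all spots outside muscle or away from the strip. Of 17 tested, 0 were higher and 0 lower over all spots (median 0.08, 8 at an unadjusted p under 0.05, DESeq2 0 higher and 1 lower, where it called 4.14% of all genes) and 0 and 0 away from the strip (median -0.11). In muscle spots of the same sections 7 of the 17 were lower and 0 higher (median -0.56), where 5.63% of all genes were called lower. *Axin2*, a feedback inhibitor and direct target, was at 58.7 CPM in control 1, 54.3 in control 2 and 51.7 in the cKO outside muscle (-0.28 ± 0.18, adjusted p = 0.53), and at 56.9 away from the strip (-0.11 ± 0.18). In muscle it was at 64.1, 81.8 and 21.4 (-1.99 ± 0.18, adjusted p = 0.00194). The difference between the change outside muscle and that in muscle was 1.74 ± 0.25 (adjusted p = 0.0258), and 1.84 without the keratin-rich spots, where it did not pass over all genes (adjusted p = 0.107).

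*Nkd1*, another feedback target, was at 84.2, 96.8 and 152 CPM outside muscle (0.60 ± 0.22, adjusted p = 0.262). *Rnf43*, a ubiquitin ligase that removes Frizzled receptors, had 8, 7 and 121 UMIs (2.89 ± 0.57, adjusted p = 0.0514), with 21.2 CPM in the strip and 1.67 away from it. *Lef1*, a transcription partner of β-catenin, was at 2.85, 4.35 and 5.34. In tendon spots away from the strip 2 of 14 targets were lower and 0 higher, where 1.58% of all genes were lower. The count was 1 by DESeq2, 1 without control 1 and 0 without control 2. The 2 genes were *Nkd2* at 32.8, 47.6 and 13.5 (-1.81 ± 0.39, adjusted p = 0.032) and *Wif1*, a secreted Wnt inhibitor that is also on the tendon list, at 22.8, 35.5 and 6.59 (-2.38 ± 0.43, adjusted p = 0.014).

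A few other members of the pathway were called over all spots, where 2.13% of all genes were higher and 0.392% lower. Of 17 ligands and their cofactors *Wnt10a* was higher, with 0, 1 and 662 UMIs, and stood at 132 CPM in the strip and 0.929 away from it. Of 16 receptors 0 passed. Of 14 inhibitors *Kremen2* was higher and *Frzb*, a secreted Frizzled-related decoy, lower. *Frzb* had 95 UMIs in control 1, 87 in control 2 and 8 in the cKO (-4.58 ± 0.61, adjusted p = 0.0111), and fell by 4.59 on the log2 scale in muscle spots, where it was at 39.2 and 42.6 CPM in the controls and 1.97 in the cKO. Of 20 core and junction genes *Jup*, plakoglobin, and *Cdh1*, E-cadherin, were higher. *Cdh1* had 4, 5 and 2007 UMIs, and *Jup* was at 183, 201 and 454 CPM, with 782 in the strip and 245 away from it. Neither passed away from the strip (adjusted p = 0.346 for *Cdh1* and 0.804 for *Jup*). In tendon spots away from the strip 1 of 16 receptors was higher and 1 lower. Of 14 inhibitors 2 were higher and 2 lower there, where 2.39% of all genes were called in either direction. Of 14 ligands and 20 core and junction genes 0 passed there.

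**Figure D5:**
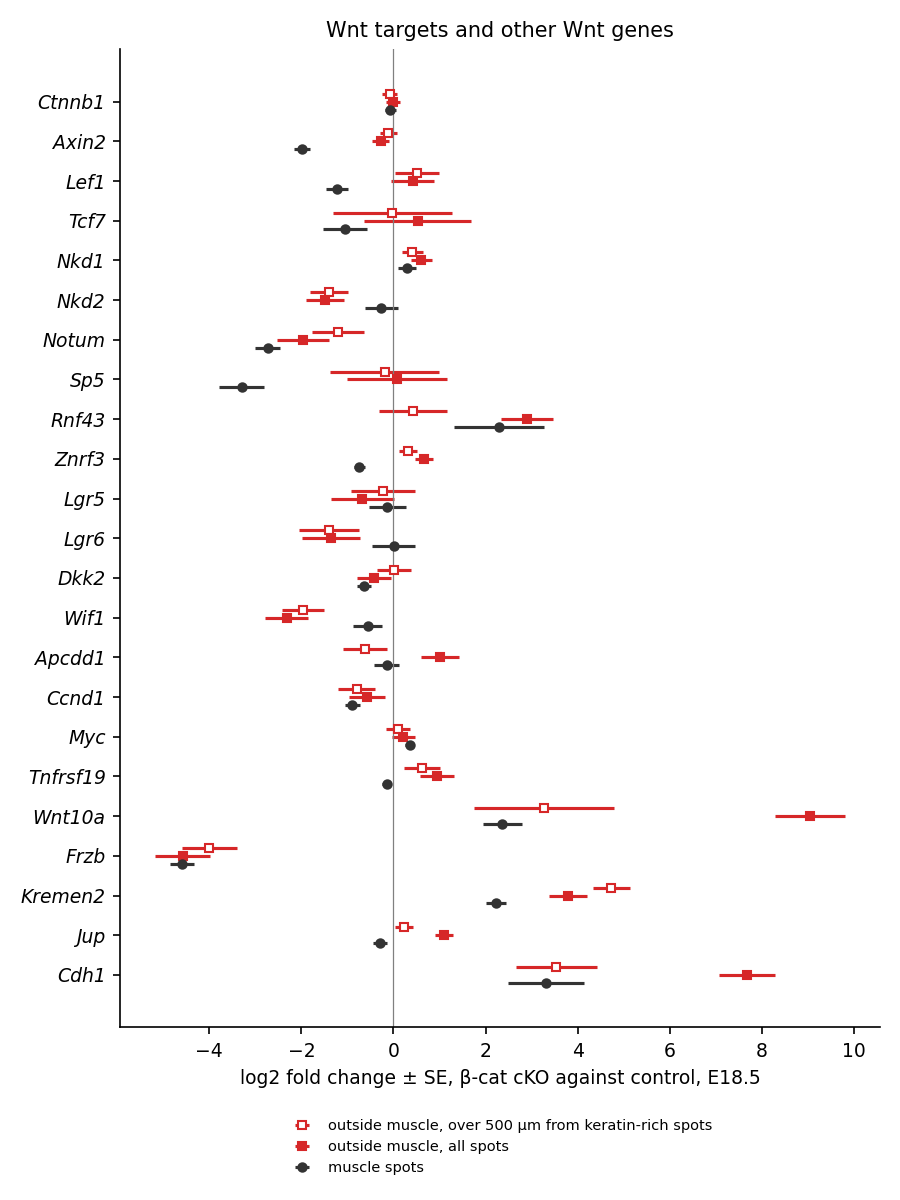
Log2 fold change with its SE (β-cat cKO against control, E18.5) of *Ctnnb1*, the Wnt targets and the Wnt genes called, outside muscle over all spots (filled red squares), outside muscle over 500 µm from keratin-rich spots (open red squares) and in muscle spots (black circles). *Axin2* lies at -0.28 outside muscle and -1.99 in muscle, *Frzb* lies near -4.6 in both, and *Wnt10a* and *Cdh1* lie far to the right only over all spots outside muscle, relative to the spots away from the strip.

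The change outside muscle was also tested against the change in muscle of the same sections, with section as a block. Of 15338 genes, 153 changed more upward and 32 more downward outside muscle (1.21% together). Without the keratin-rich spots 0 passed (0%), with 1043 at an unadjusted p under 0.05 and a smallest adjusted p of 0.0841, and away from the strip 0 passed, with 1119 and 0.0599. DESeq2 called 283 over all spots (1.85%). No gene's change outside muscle was therefore shown to differ from that in muscle once the strip was left out.

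Mutants share the 2 controls, so the CaV1.1 -/- section at E18.5 is given by its levels alone. In its 448 spots outside muscle *Acan* was at 4.09 CPM, *Col11a2* at 14.7, *Kera* at 6.97 and *Tnmd* at 71.8, each below the cKO's 25.8, 64.8, 41.5 and 340. *Mymx* was at 77.1 and *Kremen2* at 6.66 there, against 66.4 and 10.6 in the cKO, and *Myog* at 382 against 258. These cKO levels include the strip, and the CaV1.1 -/- section held no keratin-rich spot. In cKO spots away from the strip, *Mymx* and *Myog* stood above the CaV1.1 -/- levels, by the values given above. *Myh7* differed, at 444 in the CaV1.1 -/- and 44.5 in the cKO, and *Myh4* was at 359 against 7.38. Keratin UMIs in the CaV1.1 -/- section were 38 outside muscle, against 144676 in the cKO.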

How the data were processed

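The authors made the deposited count matrices with Space Ranger on mm10 from probe-based Visium libraries of 5 µm sections, 1 section per capture area; they hold UMIs per gene and spot for 19465 genes, not normalized. Seurat, also named in the submitters' processing notes, made no file used here. UMIs were summed over the spots outside muscle of each section (totals from 1150475 to 12734920 over the 8 sections) and tested with edgeR 4.0.16 (filterByExpr, TMM, quasi-likelihood F test, Benjamini-Hochberg over all genes) over 8 sections in 5 groups, with 3 residual degrees of freedom. Sections are the replicates, and p-values measure only the spread between sections within the control groups, which may be technical. DESeq2 1.42.0 was an alternative. Levels are CPM of the summed spots, and fold changes carry the TMM scaling, without which log2 fold changes shift up by 0.15 over all spots and 0.12 away from the keratin-rich spots. The fits were tested on simulated data. Members and gene lists were chosen with earlier results of these data known, and the comparisons that set keratin-rich spots apart were chosen after seeing the data. Named genes were called genes with mean log2 level of at least 5 and a cKO value outside both controls: up to 12 each way with levels outside muscle at least 1.5 times those in muscle, up to 4 each way with even or with higher muscle levels, called genes of the Wnt lists, the Wnt targets, *Ctnnb1* and up to 4 highest members of each list. Other list members and the 16 genes called away from the keratin-rich spots were named after their values were seen. A gene that this rule named is not reported here. Images and the deposited spatial autocorrelation scores were not used here.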

Additional observations from a re-analysis of the deposited data

Results flagged for a closer look

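The change outside muscle differed from the change in muscle of the same sections for 185 genes by a test of the difference itself, and for 0 genes without the keratin-rich spots. Differences below are log2 fold changes outside muscle less those in muscle. Among named genes the difference was much smaller without the strip's spots, or turned sign, for *Upk3bl* (3.67, and -0.27 without the strip's spots), *Rassf7* (2.28 and 0.29), *Epb41l4b* (1.67 and 0.11), *Fzd10* (2.93 and 0.91), *Jup* (1.42 and 0.59), *Erbb3* (1.34 and 0.53), *Nedd4l* (1.59 and 0.97) and *Serinc2* (1.83 and 0.69). *Krt15* (3.95), *Wnt10a* (6.84) and *Cdh1* (4.43) also passed, but had 2 and 3, 0 and 1, and 4 and 5 UMIs outside muscle in the controls, so that these fitted values depend on the prior count and give no size. The difference was as large or larger without those spots for *Axin2* (1.74 and 1.84), *Wnt11* (2.67 and 2.87), *Rspo3* (1.003 and 1.44), *Sostdc1* (1.37 and 1.49) and *Mymx* (1.60 and 2.20), with adjusted p from 0.0841 to 0.164. It was smaller for *Znrf3* (1.46 and 1.11), *Kremen1* (1.31 and 1.05), *Cgref1* (-1.81 and -1.32) and *Itgbl1* (-1.28 and -0.66). In *Wnt11*, *Rspo3*, *Kremen1*, *Fzd10* and *Sostdc1* the muscle spots fell and the tissue outside muscle did not pass a test, as in *Axin2*.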

How the results depend on the processing

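The count of 367 genes called over all spots rested on which spots entered. It was 28 without keratin-rich spots, 16 over 500 µm from them, 26 there with the lowest cut of the 3 sections in each, 179 with muscle RNA subtracted, 196 without spots that touch muscle, 926 with 1 Otsu cut over all sections and 181 with no spot dropped for *Alb* and *Ahsg*. DESeq2 called 602 (389 higher and 213 lower) and the fit without a filter on low counts 598. Leaving out a control gave 165 to 172. In tendon spots at any distance from the keratin-rich strip the split was 114 higher and 158 lower. The 185 genes whose change differed between tissue outside muscle and muscle became 283 by DESeq2, 495 without a filter, 63 without spots that touch muscle and 0 without keratin-rich spots or over 500 µm from them. With a control left out they were 286 to 433, the latter without control 2 with 191 upward and 242 downward, and without scaling factors 212, with 127 upward and 85 downward. Signs turned for *Epb41l4b* without keratin-rich spots (-0.15), over 500 µm away (-0.61), there with the lowest cut (-0.90) and in tendon spots there (-0.045), and for *Apcdd1* in tendon spots (-0.65), over 500 µm away (-0.63), with the lowest cut (-0.77) and in tendon spots there (-1.02). With muscle RNA subtracted *Myh7* turned to 8.88 and *Coq8a* to 0.39. Apart from spot choices, the cause of each was not tested. Of 53 named genes with a test, 35 were called. Some lost their call without control 1 and some without control 2, and in these fits without a control 0 turned sign past their error. No paired analysis was possible because the cKO has 1 section and shares 1 replicate number with the controls.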
